A study of Mus musculus with 12 samples.

Results

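The interferon-stimulated genes are a set of 39 mouse genes that cells switch on when they sense interferon, and they were followed here in the aorta of mice given porcine pancreatic elastase (PPE). The 39 genes were listed by name, and each was represented by the RefSeq accession with the highest mean level, out of 34755 accessions in the count table. Of the 39 genes, 36 had enough counts to be tested, among 12756 tested accessions of 12239 genes. The libraries came from 12 male C57BL/6J mice aged 10 weeks, in 3 groups of 4. In the PPE week 2 and PPE week 1 groups the enzyme was infused into the aorta below the renal arteries, which was collected 14 and 7 days later. In the saline group the same segment was infused with saline and collected after 7 days, so that PPE week 2 differed from saline in time as well as in the infusion. PPE infusion is a model of abdominal aortic aneurysm in which elastic fibres are digested from the lumen. RNA of the whole aortic sample was sequenced, so that fewer cells of a type and less RNA per cell cannot be told apart.

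Interferons are secreted proteins that bind receptors on nearby cells and signal through Jak kinases. Type I interferons assemble a complex that includes Stat2 and Irf9, called ISGF3, which binds a DNA element named the interferon-stimulated response element (ISRE) in front of target genes. Type II interferon acts mainly through a different element named GAS. The induced proteins block viral replication, mark proteins with the ubiquitin-like modifier Isg15, sense foreign or misplaced nucleic acid, and feed back on the pathway itself. Arteries hold several cell types that respond to interferon, macrophages and endothelium among them.

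RefSeq promoter windows of the GRCm38.p6 assembly were at hand for 31 of the 39 genes, and the 250 bases before each start site were searched on both strands for the ISRE-type letters, GAAA followed by any 2 bases and a second GAAA. A match stood before a start site of 16 of the 31 genes, or 51.6%, against 3.46% of all 27025 genes in that table. The GAS-type letters, TTC and GAA with any 3 bases between them, which can overlap an ISRE-type match, stood there in 6 of the 31 genes, or 19.4%, against 8.13% of all genes. Letters of the type bound by NF-kB, a general factor of inflammation, GGGA and CC with any 4 bases between them, stood there in 5 genes, or 16.1%, against 19.7% of all genes. A match is a description of the letters and was not measured as a binding site here. Stretches around the matches are printed for the 8 genes that hold a match and have per-library values below. They run 5′ to 3′ on the gene's own strand. Capitals mark the ISRE-type letters, which read as TTTC and TTTC where the match lies on the opposite strand.
Isg15 promoter, chr4:156200855-156200916, minus strand: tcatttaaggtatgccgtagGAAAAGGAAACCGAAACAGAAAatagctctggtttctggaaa
Oas3 promoter, chr5:120777705-120777754, minus strand: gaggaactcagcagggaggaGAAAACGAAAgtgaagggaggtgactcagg
Ifit1 promoter, chr19:34640765-34640833, plus strand: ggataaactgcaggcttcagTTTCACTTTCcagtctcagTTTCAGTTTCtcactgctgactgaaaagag
Rsad2 promoter, chr12:26456543-26456592, minus strand: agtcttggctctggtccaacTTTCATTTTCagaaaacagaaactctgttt
Stat2 promoter, chr10:128270256-128270305, plus strand: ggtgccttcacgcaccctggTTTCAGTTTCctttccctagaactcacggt
Bst2 promoter, chr8:71537567-71537622, minus strand: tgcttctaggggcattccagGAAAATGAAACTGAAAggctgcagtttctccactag
Slfn5 promoter, chr11:82951927-82951976, plus strand: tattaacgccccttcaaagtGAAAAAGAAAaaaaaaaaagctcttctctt
Gbp2 promoter, chr3:142620584-142620633, plus strand: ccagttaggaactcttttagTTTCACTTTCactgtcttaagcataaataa
The Isg15 stretch runs from 98 to 37 bases before the start site and holds 3 overlapping matches, which begin 78, 72 and 66 bases before it. The Bst2 stretch holds 2 overlapping matches and the Ifit1 stretch 2 separate ones. The other 5 stretches hold 1 match each.

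The 12 libraries held 8343313 to 12269131 counts each. A precursor of ribosomal RNA, accession NR_046233, took 20.4 ± 1.13% of the counts at PPE week 2, 30.4 ± 6.34% at PPE week 1 and 41.3 ± 6.48% in saline (SD, n = 4 each), which left 4835305 to 9169690 counts per library for everything else. Levels are given as CPM, counts per 1000000 of a library's total after TMM scaling, a correction that evens out composition between libraries. The table appears to hold few counts for genes with several RefSeq isoforms: the 28 listed genes with 1 accession had a median of 10433 counts over all libraries, against 517 for the 11 with more. Irf7, the main amplifier of type I interferon production, had 0 counts on each of its 3 accessions. Gbp7, a guanylate-binding protein, had 0 counts on both of its own, and Irf9, the DNA-binding part of ISGF3, had 45, 64 and 0 on its 3, too few to be tested. Gapdh, a gene that every cell uses, had 2 counts in the whole table, so these zeros do not give the level of the genes. Several members also have near-identical copies, which makes their values uncertain. Of the 50-base stretches of the transcript, 57.6% were shared with Oas1g for Oas1a, 51.2% with Ifit3b for Ifit3, 23.8% with Gm45193 for Herc6, 12.3% with Irgm2 for Igtp and 11.1% with other genes for Slfn4.

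At PPE week 1 most of the tested interferon-stimulated genes rose above their saline level, and none fell. All 36 tested genes had a positive log2 fold change, from 0.73 for Iigp1 to 8.39 for Slfn4, with a median of 1.86, which is a fold of 3.63. The median of all 12756 accessions was close to 0, at 0.00271. The test passed for 22 of the 36, all higher, while 3.98% of all accessions rose and 3.91% fell (edgeR's quasi-likelihood test, Benjamini-Hochberg adjusted p under 0.05 over all accessions). In 31 of the 36 every PPE week 1 library lay above every saline library, against 12.1% of all accessions. A filter on low counts can favour genes that are high in 1 group, and 30 of the 36 reached the filter's level of 1.01 CPM in all 4 saline libraries. These 30 had the same median of 1.86, and 21 of them rose. By role, the genes that rose were 1 of 1 tested regulator, 3 of 3 genes of the Isg15 system, 4 of 5 OAS genes, 2 of 3 IFIT genes and 8 of 10 other antiviral effectors. They were also 1 of 3 sensors, 0 of 6 interferon-inducible GTPases, 2 of 3 Schlafen genes and 1 of 2 TRIM30 genes.

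**Figure D1:**
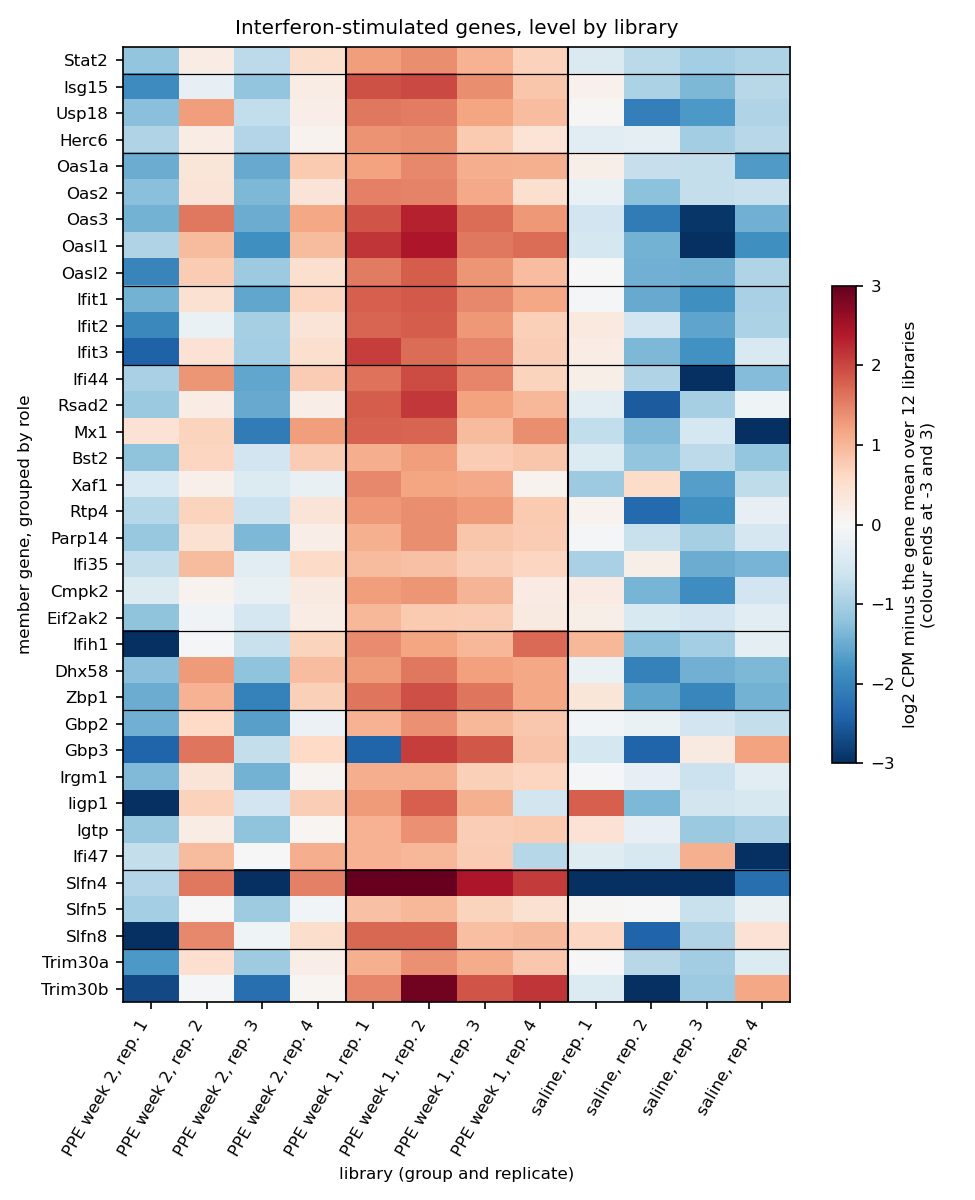
Level of the 36 tested genes in each library, as log2 CPM minus the gene's mean over the 12 libraries; rows are genes grouped by role, columns are the 4 libraries of PPE week 2, PPE week 1 and saline, and colour ends at -3 and 3. The 4 PPE week 1 columns are red in most rows, the saline columns mostly blue, and PPE week 2 replicates 2 and 4 differ in colour from replicates 1 and 3.

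The regulator Stat2, the part of ISGF3 that carries the activation domain (chr10:128270498-128292853, mm10), stood at 408, 451, 350.0 and 277 CPM in PPE week 1 replicates 1 to 4, against 126, 96.6, 83.5 and 90.1 CPM in saline replicates 1 to 4. The lowest PPE week 1 library was above the highest saline library. Stat2 rose 3.75-fold (log2 fold change 1.91 ± 0.34 (SE), adjusted p = 0.00684, edgeR). Isg15, a ubiquitin-like protein attached to other proteins (chr4:156199424-156200818), was measured at 152, 159, 106 and 71.6 CPM at PPE week 1, against 44.3, 20.7, 15.7 and 22.8 CPM in saline. Its groups did not overlap either, although PPE week 1 replicate 4 was the lowest and saline replicate 1 the highest of their groups. The mean was 122 ± 41.2 CPM at PPE week 1 and 25.9 ± 12.7 CPM in saline (SD, n = 4 each), and Isg15 rose 4.70-fold (2.23 ± 0.47, adjusted p = 0.0154, edgeR). The enzymes that add and remove Isg15 rose with it. Herc6, its main ligase in mice, had 163, 168, 110.4 and 84.9 CPM at PPE week 1, against 51.0, 53.6, 31.2 and 35.7 CPM in saline, and rose 3.06-fold (1.61 ± 0.30, adjusted p = 0.00643, edgeR). Usp18, which strips Isg15 from proteins and restrains the type I receptor, had 104, 101, 78.8 and 65.8 CPM at PPE week 1, against 35.8, 8.19, 10.3 and 18.4 CPM in saline. Its PPE week 1 libraries all exceeded the saline ones, and it rose with a log2 fold change of 2.25 ± 0.58 (adjusted p = 0.0367, edgeR).

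The OAS proteins make a small RNA messenger that activates the nuclease RNase L once they bind double-stranded RNA. Oas3 (chr5:120753098-120777684) had 140.4, 188, 120.3 and 92.2 CPM at PPE week 1, against 25.1, 8.64, 4.83 and 13.7 CPM in saline, and Oas2, its neighbour at chr5:120730333-120749886, had 198, 194, 153 and 96.3 CPM at PPE week 1, against 60.4, 29.2, 41.7 and 43.6 CPM in saline. In both genes the groups were fully apart. Oas3 rose 10.2-fold (3.35 ± 0.79, adjusted p = 0.0302) and Oas2 3.65-fold (1.87 ± 0.43, adjusted p = 0.0244, edgeR). Oasl1, which lacks synthetase activity and in mice holds back translation of Irf7, had 83.2, 102, 56.3 and 60.3 CPM at PPE week 1, against 12.9, 6.85, 1.83 and 5.05 CPM in saline. Its rise of 11.1-fold was next in size to that of Slfn4 (3.48 ± 0.69, adjusted p = 0.0133, edgeR). Oasl2 rose by a log2 fold change of 2.27 (adjusted p = 0.0455, edgeR), whereas Oas1a missed the threshold at 1.79 (adjusted p = 0.0579). The IFIT proteins bind foreign RNA ends and block translation. Ifit1 (chr19:34640889-34650009) had 270.0, 280.1, 213 and 173 CPM at PPE week 1, against 73.9, 27.0, 21.6 and 39.2 CPM in saline, with no overlap, and rose 5.76-fold (2.53 ± 0.57, adjusted p = 0.0256, edgeR). Ifit2 rose with 2.00 (adjusted p = 0.0455, edgeR), and Ifit3, which shares much of its sequence with a copy, had 2.19 (adjusted p = 0.0776).

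Among the other antiviral effectors, Rsad2 and Cmpk2 lie next to each other on chromosome 12. Rsad2, or viperin, makes a nucleotide that ends viral RNA chains, and Cmpk2 is a nucleotide kinase that feeds it. Rsad2 stood at 231, 282, 152 and 131 CPM at PPE week 1, against 52.0, 11.3, 32.7 and 59.8 CPM in saline, and Cmpk2 at 79.1, 82.7, 66.5 and 39.1 CPM at PPE week 1, against 38.8, 12.4, 8.89 and 22.0 CPM in saline. PPE week 1 replicate 4 was the lowest of its group for both genes, and the groups did not overlap. Rsad2 rose 5.09-fold (2.35 ± 0.55, adjusted p = 0.0285) and Cmpk2 3.24-fold (1.69 ± 0.38, adjusted p = 0.0162, edgeR). Bst2, or tetherin, which holds budding virus particles on the cell surface, had 154, 176, 124 and 130.2 CPM at PPE week 1, against 54.9, 31.9, 42.1 and 32.5 CPM in saline, and rose 3.61-fold (1.85 ± 0.38, adjusted p = 0.0135, edgeR). Eif2ak2, or PKR, a kinase that stops translation when it binds double-stranded RNA, had 252, 219, 214 and 151 CPM at PPE week 1, against 143, 91.8, 84.2 and 100.2 CPM in saline. The lowest PPE week 1 library lay only just above saline replicate 1, and the rise was 2.00-fold (1.00 ± 0.27, adjusted p = 0.0350, edgeR). Ifi35, a leucine zipper protein, had 55.7, 52.9, 48.2 and 44.8 CPM at PPE week 1, against 14.5, 32.3, 10.2 and 10.7 CPM in saline, where replicate 2 stood above the other 3, and it rose with 1.58 ± 0.40 (adjusted p = 0.0253, edgeR). The effectors Rtp4, Xaf1 and Parp14 also passed, with log2 fold changes of 1.95 for Rtp4, 1.59 for Xaf1 and 1.56 for Parp14, and Xaf1 was the only effector whose groups overlapped. Mx1 is named for a GTPase that traps viral capsids, but RefSeq lists it here as a non-coding transcript, so its counts do not measure that protein. Mx1 had 7.80, 7.63, 4.34 and 5.99 CPM at PPE week 1, against 1.22, 0.745, 1.44 and 0 CPM in saline. It missed the threshold (2.89 ± 0.89, adjusted p = 0.0564, edgeR), as did Ifi44 (2.38, adjusted p = 0.0869).

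Of the 3 tested sensors of nucleic acid 1 passed the edgeR test. Dhx58, or LGP2, a cytosolic RNA sensor, had 72.7, 90.1, 70.1 and 67.4 CPM at PPE week 1, against 26.2, 7.15, 10.8 and 11.6 CPM in saline, and rose 5.32-fold (2.41 ± 0.60, adjusted p = 0.0329, edgeR). Zbp1, which binds nucleic acid in the Z form and can start necroptosis, had 106, 131, 105 and 77.0 CPM at PPE week 1, against 44.3, 11.6, 8.75 and 12.7 CPM in saline. The groups of Zbp1 were apart, but saline replicate 1 was far above the other saline libraries and the threshold was missed (2.42 ± 0.74, adjusted p = 0.0763, edgeR). Ifih1, or MDA5, did not pass (1.46, adjusted p = 0.235, edgeR). In the authors' deposited table for PPE week 1 all 3 sensors were higher, with adjusted p of 6.49e-13 for Dhx58, 0.000255 for Zbp1 and 0.0161 for Ifih1 (DESeq2).

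None of the 6 tested interferon-inducible GTPases passed the edgeR test at PPE week 1, although all had positive log2 fold changes, with a median of 1.26. These proteins attack the vacuoles of intracellular pathogens and respond to type II as well as type I interferon. Gbp2 (chr3:142620663-142638008) had 326, 406, 313 and 276 CPM at PPE week 1, against 148, 137, 106 and 96.0 CPM in saline, with no overlap, and a log2 fold change of 1.44 ± 0.43 (adjusted p = 0.0721, edgeR). Igtp and Irgm1 came near the threshold at 1.34 and 1.20 (adjusted p = 0.0600 and 0.0614). Gbp3, Ifi47 and Iigp1 had low counts and stood at 1.32, 0.84 and 0.73 (adjusted p = 0.679, 0.700 and 0.756). In the authors' deposited table for PPE week 1, Gbp2, Irgm1 and Igtp were higher (DESeq2, adjusted p = 3.02e-15, 1.77e-10 and 3.56e-05). Gbp3, Ifi47 and Iigp1 did not pass there either (DESeq2, adjusted p = 0.552, 0.636 and 0.608). Whether the GTPases differed from the other roles was not tested.

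The Schlafen genes held both the largest and the smallest change among those that passed. Slfn4, a myeloid Schlafen gene (chr11:83175172-83190216), had 18.9, 23.3, 8.16 and 6.49 CPM at PPE week 1, against 0, 0, 0 and 0.129 CPM in saline, where 1 count was found over the 4 libraries. Its 591 counts at PPE week 1 gave a ratio of levels of 458, with an exact 95% interval of 81.9 to 18122 that covers counting error only. The test passed with a fitted log2 fold change of 8.39 ± 1.40 (adjusted p = 0.00328, edgeR), a size that depends on how a near-zero group is treated. With 0 saline libraries at the filter's level, Slfn4 entered the test only through its PPE libraries. Slfn5, which is expressed in many cell types, had 751, 811, 648 and 562 CPM at PPE week 1, against 419, 415, 258 and 353 CPM in saline. It rose 1.92-fold (0.94 ± 0.25, adjusted p = 0.0369, edgeR). Slfn8 did not pass (1.54, adjusted p = 0.391), nor did Trim30b (2.40, adjusted p = 0.0968), while Trim30a, which dampens Toll-like receptor signalling in mice, rose (1.62, adjusted p = 0.0493, edgeR).

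**Figure D2:**
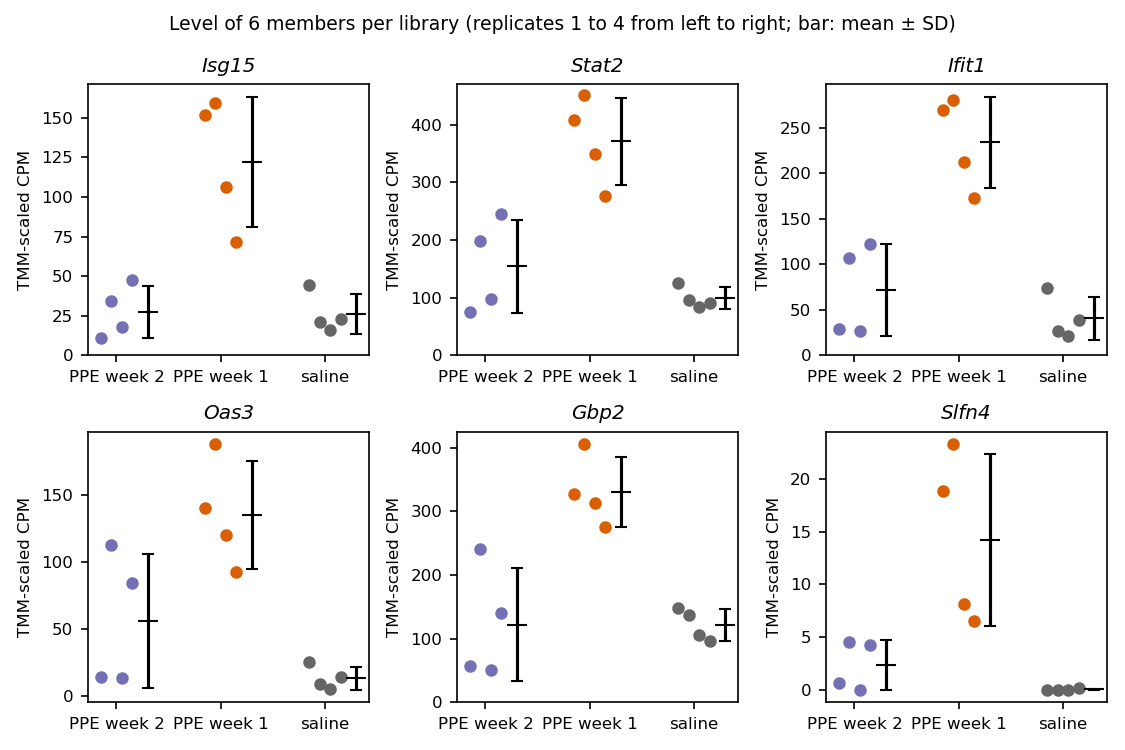
TMM-scaled CPM of Isg15, Stat2, Ifit1, Oas3, Gbp2 and Slfn4 in every library of PPE week 2, PPE week 1 and saline; points are replicates 1 to 4 from left to right and bars are mean ± SD (n = 4). In all 6 panels the PPE week 1 points lie above the saline points, and in Oas3 PPE week 2 replicates 2 and 4, at 113 and 84.1 CPM, stand apart from replicates 1 and 3, at 13.9 and 13.3 CPM.

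How many genes passed at PPE week 1 varied when 1 library was left out, while their direction did not change in these fits. The 22 calls became 20, 10, 7 and 4 without saline replicate 1, 2, 3 or 4, and 7, 5, 7 and 14 without PPE week 1 replicate 1, 2, 3 or 4. Calls over all accessions, 1007 with every library, fell as well. They were 703, 662, 576 and 472 without saline replicate 1, 2, 3 or 4, and 536, 378, 584 and 602 without PPE week 1 replicate 1, 2, 3 or 4. In each of these fits 31 or 32 of the 36 genes had an unadjusted p under 0.05 (edgeR). Stat2, Slfn4 and Herc6 passed in all 12 fits without 1 library, and the other 19 each lost the call in 1 to 9 of them. The rRNA precursor share also differed between the groups, though in another order than the genes, and its part in the result was not tested. With it as a covariate no member passed, 34 of 36 log2 fold changes stayed positive and their median was 1.64, while the calls over all accessions dropped to 82, against 1007 without it. In the authors' deposited table for the same comparison all 36 genes were listed, and 33 were higher at an adjusted p under 0.05, beside 9.23% of the table's accessions. The authors' deposited table gave log2 fold changes of 0.50 to 5.02 for them, with a median of 1.68.

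Markers of cell types differed between PPE week 1 and saline as well, and their part in the rise of the interferon-stimulated genes was not tested. Summed over 13 macrophage markers the level was 4653 to 5824 CPM at PPE week 1, against 2445 to 2854 CPM in saline, a ratio of means of 1.93, with 3 of 12 tested markers higher and Itgam at 0. The 12 T and NK cell markers summed to 145 to 207 CPM at PPE week 1, against 24.6 to 44.9 CPM in saline, a ratio of 4.62, with 3 of 10 tested markers higher and Klrb1c at 0. Neutrophil markers summed to 39.1 to 141 CPM at PPE week 1, against 7.97 to 17.7 CPM in saline, with 0 of 4 tested markers called and S100a9 at 0. Dendritic cell markers summed to 189.7 to 241 CPM at PPE week 1, against 113 to 148 CPM in saline, with 0 of 5 called and Clec9a at 0. Each of these sums had an exact two-sided permutation p of 0.0286, the smallest that 4 against 4 libraries can give, and 0.0571 after adjustment over 10 lists. Smooth muscle markers went the other way, with 1643 to 3075 CPM at PPE week 1, against 5781 to 7648 CPM in saline, and 6 of 8 were lower. For plasmacytoid dendritic cells, the specialised producers of type I interferon, 1 of 4 markers could be tested, so that the table does not give their level. The 4 summed to 2.76 to 8.18 CPM at PPE week 1, against 0 to 3.31 CPM in saline, with Siglech at 0. The remaining lists had ratios of PPE week 1 to saline of 1.92 for B cells, 0.962 for endothelium, with Pecam1 and Tek at 0, 1.10 for fibroblasts and 0.478 for adipocytes. None of these 4 passed the permutation test, at exact p from 0.0857 to 0.6, although 4 of 7 tested fibroblast markers were lower one by one.

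**Figure D3:**
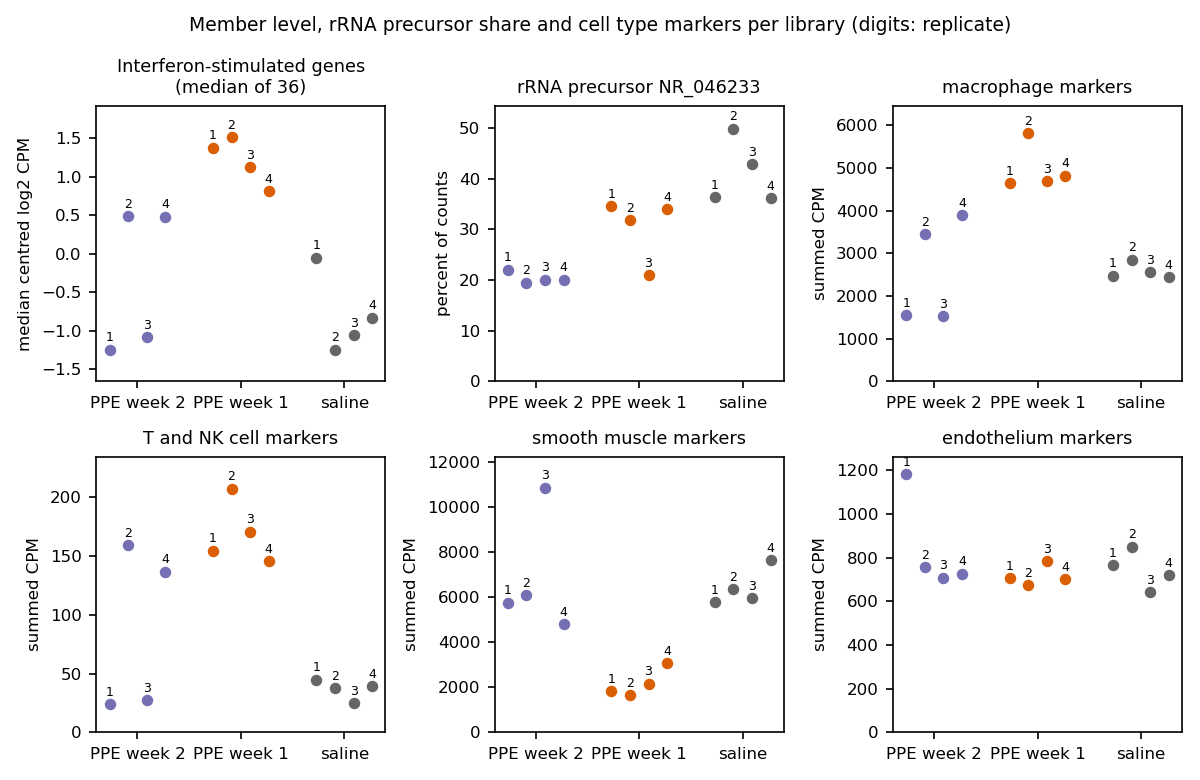
One panel each for the median centred log2 CPM of the 36 interferon-stimulated genes, the percent of counts in the rRNA precursor, and the summed CPM of macrophage, T and NK cell, smooth muscle and endothelium markers; points are single libraries of PPE week 2, PPE week 1 and saline, with the replicate number above. PPE week 2 replicates 2 and 4 are high and replicates 1 and 3 low in the interferon, macrophage and T and NK cell panels.

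At PPE week 2 the genes had lower fitted levels than at PPE week 1, and 6 of them passed the test. All 36 log2 fold changes of PPE week 2 over PPE week 1 were negative, from -3.03 for Trim30b to -0.16 for Ifi47, with a median of -1.28, against 0.019 over all accessions, although Ifi47 turned positive under 3 alternative fits and without PPE week 2 replicate 1 (0.094). The 6 of 36 that passed were all lower at PPE week 2, while 2.82% of all accessions were lower and 3.77% higher. In 23 of the 36 every PPE week 2 library lay below every PPE week 1 library, against 8.68% of all accessions. Isg15 had 10.8, 34.0, 17.7 and 47.4 CPM in PPE week 2 replicates 1 to 4, below all 4 of its PPE week 1 values, and fell 4.44-fold (log2 fold change -2.15 ± 0.47, adjusted p = 0.0194, edgeR). Its ligase Herc6 fell as well, with 34.3, 75.2, 35.1 and 69.0 CPM at PPE week 2 (-1.30 ± 0.30, adjusted p = 0.0194, edgeR), and so did Stat2, with 75.0, 198, 98.1 and 246 CPM (-1.27 ± 0.33, adjusted p = 0.0411). The 3 genes had no PPE week 2 library within their PPE week 1 range. Slfn5 fell to 200.2, 413, 195 and 385 CPM at PPE week 2 (-1.22 ± 0.25, adjusted p = 0.0136, edgeR). Eif2ak2 fell to 54.9, 117, 87.1 and 148 CPM at PPE week 2 (-1.04 ± 0.26, adjusted p = 0.0325, edgeR). Both were below PPE week 1 in every library. Trim30b, a gene with few counts, had 0.466, 4.03, 0.701 and 4.25 CPM at PPE week 2, against 11.7, 31.5, 15.7 and 18.9 CPM at PPE week 1, and the largest fall (-3.03 ± 0.85, adjusted p = 0.0482, edgeR).

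Oas3, Oasl1 and Slfn4, which had the largest rises at PPE week 1, did not pass as lower at PPE week 2. Oas3 had 13.9, 113, 13.3 and 84.1 CPM at PPE week 2 and Oasl1 had 9.98, 36.5, 5.08 and 36.6 CPM, and in both genes replicates 1 and 3 lay within the saline range and replicates 2 and 4 above it (PPE week 2 over PPE week 1 -1.27 ± 0.72, adjusted p = 0.373, and -1.77 ± 0.64, adjusted p = 0.133, edgeR). The same pattern stood in Ifit1, with 29.0, 107, 26.4 and 122 CPM at PPE week 2 (-1.71 ± 0.55, adjusted p = 0.10), and in Rsad2, with 30.2, 75.9, 22.6 and 74.8 CPM (-1.97 ± 0.54, adjusted p = 0.0580, edgeR). Gbp2, with 57.5, 241, 50.7 and 140.4 CPM at PPE week 2, lay below PPE week 1 in every library (-1.43 ± 0.43, adjusted p = 0.0799, edgeR), as did Slfn4, with 0.653, 4.51, 0 and 4.25 CPM (-2.59 ± 0.91, adjusted p = 0.108). Oas2 had 28.9, 90.8, 27.0 and 89.8 CPM at PPE week 2 (-1.44 ± 0.43, adjusted p = 0.0694, edgeR). The PPE week 2 values of 3 further genes were 31.6, 114, 48.6 and 124 CPM for Bst2, 17.5, 55.6, 22.8 and 43.2 CPM for Ifi35 and 24.7, 35.3, 28.1 and 39.6 CPM for Cmpk2. Their log2 fold changes against PPE week 1 were -0.87, -0.53 and -1.07, none past the threshold. Usp18 had 14.5, 83.3, 20.8 and 39.9 CPM at PPE week 2, Dhx58 12.4, 73.1, 12.8 and 57.4 CPM, Zbp1 12.2, 70.6, 8.32 and 56.5 CPM and Mx1 2.98, 3.55, 0.350 and 5.40 CPM. These 4 also missed the threshold against PPE week 1, with log2 fold changes of -1.14, -0.95, -1.50 and -1.06. The 6 calls became 0 without PPE week 1 replicate 2, 1 without PPE week 1 replicate 1 or PPE week 2 replicate 3, 3 without PPE week 1 replicate 3, and 12 and 10 without PPE week 2 replicate 2 or 4, while every median stayed between -1.72 and -1.08. Calls over all accessions also moved, to between 319 and 1213 without 1 library, against 841. With the rRNA precursor share as a covariate 0 of the 36 passed.

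Against saline, 1 of the 36 genes passed at PPE week 2, Slfn4, while 1.30% of all accessions were higher and 1.35% lower. The median log2 fold change was 0.45, from -0.63 for Trim30b to 5.81 for Slfn4, with 29 genes above 0, and the median of all accessions was 0.0504. The median was positive in every fit except that with the rRNA precursor share as a covariate, where it was -0.26, with 13 genes above and 23 below 0. That share was 19.5 to 22.1% at PPE week 2 and 36.2 to 49.9% in saline. The ranges did not overlap, so that the fit cannot tell the share and the group apart. Without 1 library the median lay between 0.16 (PPE week 2 replicate 2 left out) and 0.80 (saline replicate 1 left out). No gene had all PPE week 2 libraries above all saline libraries, against 4.55% of all accessions. Slfn4 held 113 counts at PPE week 2 and 1 in saline, a ratio of levels of 81.7 with an exact 95% interval of 14.4 to 3254, but PPE week 2 replicate 3 had 0 counts. Its test passed (adjusted p = 0.0410, edgeR) and was lost in 9 of 12 fits without 1 library, with adjusted p up to 0.131 without saline replicate 4. Slfn4 reached the filter's level of 1.01 CPM in 0 saline libraries, so it entered the test only through its PPE libraries. Of the 30 genes that reached that level in all 4 saline libraries, 0 passed at PPE week 2 against saline. Isg15 averaged 27.5 ± 16.5 CPM at PPE week 2 and 25.9 ± 12.7 CPM in saline (SD, n = 4 each), a difference within the spread (0.08 ± 0.45, adjusted p = 0.960, edgeR). Stat2 averaged 154 ± 81.0 CPM at PPE week 2 and 99.1 ± 18.8 CPM in saline (0.64 ± 0.33, adjusted p = 0.359), and Gbp2 122 ± 88.8 CPM at PPE week 2 and 122 ± 24.8 CPM in saline (0.00 ± 0.43, adjusted p = 0.998, edgeR). Oas3 and Mx1 had the next highest log2 fold changes after Slfn4, 2.08 ± 0.76 and 1.83 ± 0.87 (adjusted p = 0.194 and 0.303). The authors' deposited table for PPE week 2 listed 32 of the genes and called 0 of them at an adjusted p under 0.05, beside 2.20% of its accessions that were higher. Slfn4 was not among these 32, nor were Mx1, Gbp3 and Ifi47, so that table gives no result for Slfn4 at PPE week 2. The summed cell type markers had ratios of PPE week 2 to saline of 1.01 for macrophages, 2.37 for T and NK cells and 2.60 for B cells. All 4 B cell sums at PPE week 2 lay above all 4 saline sums, with an exact two-sided permutation p of 0.0286, the smallest that 4 against 4 libraries can give. None of the 10 lists passed the exact permutation test after adjustment (adjusted p from 0.286 to 0.943). With only the B cell list at that smallest p, no list could have passed after adjustment, whatever the size of the difference. The comparisons of both PPE weeks with saline share the 4 saline libraries.

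**Figure D4:**
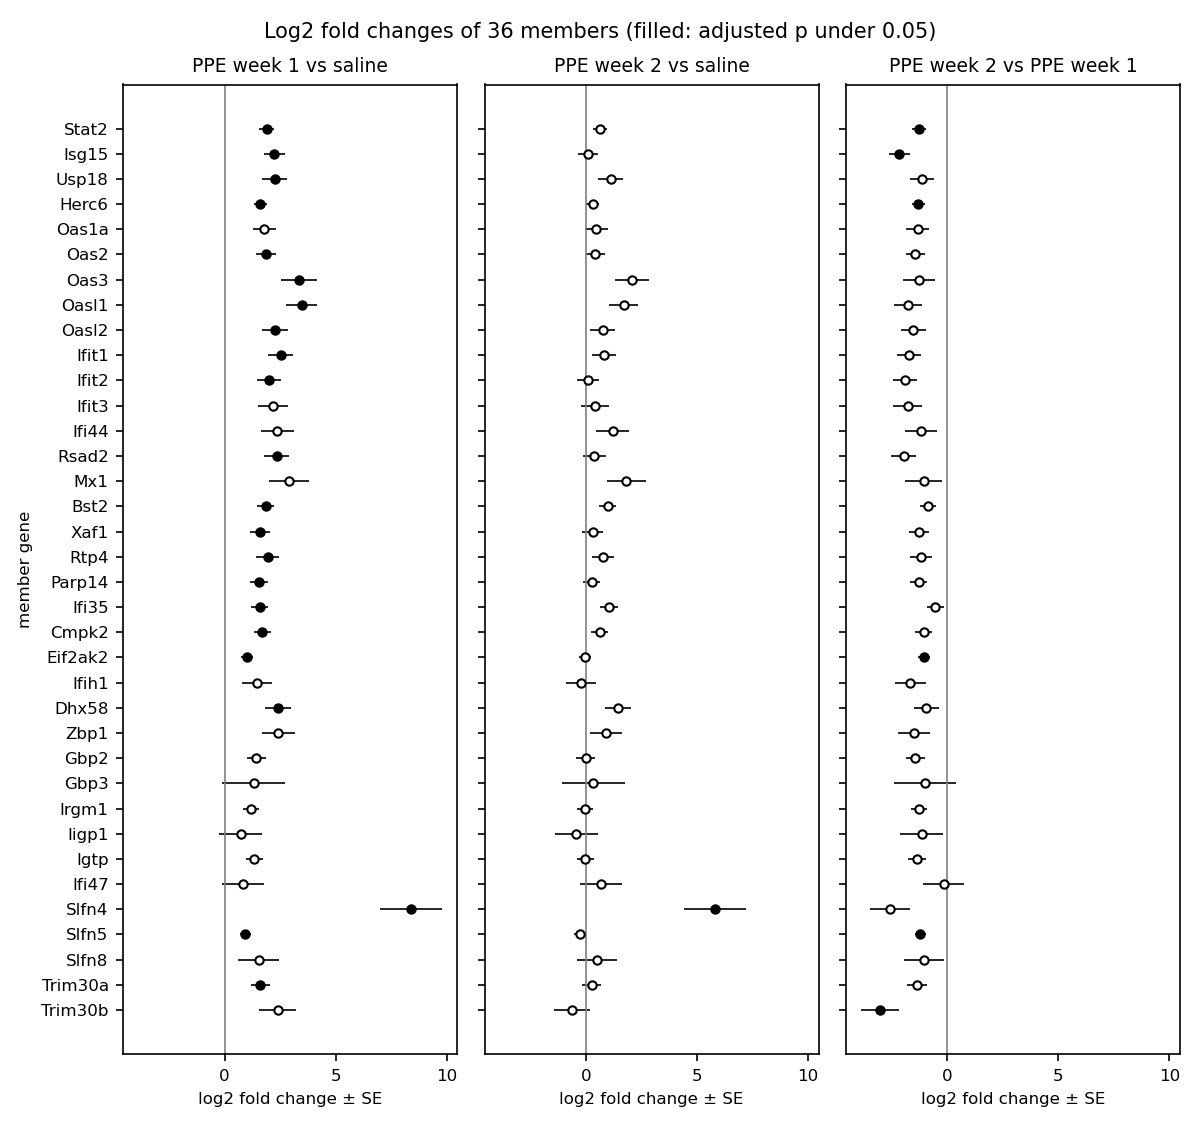
Log2 fold changes with SE of the 36 genes for PPE week 1 over saline, PPE week 2 over saline and PPE week 2 over PPE week 1; filled points passed the test at an adjusted p under 0.05 (edgeR). All points are above 0 in the PPE week 1 panel, 22 of them filled, and all are below 0 in the panel of PPE week 2 over PPE week 1, 6 of them filled.

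The PPE week 2 libraries differed from each other in a like way across the 36 genes. In all 36 genes the highest PPE week 2 value was in replicate 2 or 4, 21 and 15 genes each, and the lowest in replicate 1 or 3, also 21 and 15 genes. The median centred level, log2 CPM minus the gene's mean over the 12 libraries, was -1.25, 0.49, -1.09 and 0.48 in PPE week 2 replicates 1 to 4. It was 1.38, 1.51, 1.12 and 0.81 at PPE week 1 and -0.05, -1.25, -1.06 and -0.83 in saline. The SD between libraries was 0.956 at PPE week 2, 0.307 at PPE week 1 and 0.526 in saline. At PPE week 1 replicate 2 was highest in 27 genes and replicate 4 lowest in 28, and in saline replicate 1 was highest in 27. Macrophage markers ran with the PPE week 2 spread, with 1547, 3453, 1532 and 3896 CPM in replicates 1 to 4. So did T and NK cell markers, with 23.9, 159, 27.2 and 137 CPM. The dendritic cell, neutrophil and B cell sums were also higher in PPE week 2 replicates 2 and 4 than in replicates 1 and 3. Fibroblast and adipocyte sums were lower in replicates 2 and 4, with 38632, 32371, 44911 and 30714 CPM in replicates 1 to 4 for fibroblasts. The remaining lists did not split this way. The rRNA precursor share did not separate these libraries, at 22.1, 19.5, 20.1 and 20.1% of counts. The part of these cells in the interferon values was not tested. Between PPE week 2 and PPE week 1, macrophage markers had a ratio of means of 0.521, T and NK cell markers 0.513, neutrophil markers 0.149 and smooth muscle markers 3.16, with 6 of 8 smooth muscle markers higher at PPE week 2. The macrophage, neutrophil and smooth muscle sums did not overlap between the PPE weeks. Each had an exact two-sided permutation p of 0.0286, the smallest that 4 against 4 libraries can give, and 0.0952 after adjustment over the 10 lists. The T and NK cell sums had an exact p of 0.0857 (permutation test). With 4 libraries per group a list can pass after adjustment only if most of the 10 lists reach that smallest p.

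The rest of the interferon pathway was read from 6 lists of genes outside the 39. Among 21 interferon genes 16 had no counts at all, Ifnb1 among them, and the single one that could be tested, Ifnz, did not pass. Ifng, the type II interferon made by T and NK cells, was below the count filter. It had 2, 10, 0 and 4 counts in PPE week 2 replicates 1 to 4, 6, 32, 4 and 12 in PPE week 1, and 0 in each saline library. Of 8 tested receptors and Jak kinases, 2 rose at PPE week 1, the type I receptor chain Ifnar1 (log2 fold change 0.69 ± 0.20, adjusted p = 0.0471) and the type II receptor chain Ifngr1 (0.67 ± 0.15, adjusted p = 0.0111, edgeR). Ifnar2 and Ifngr2, their partner chains, had 0.76 and 0.28 and did not pass. Jak1 was lower at PPE week 2 than at PPE week 1 (-0.59 ± 0.11, adjusted p = 0.00541, edgeR). Of 7 tested transcription factors only Irf2, a factor that competes with Irf1, rose at PPE week 1 (0.79 ± 0.16, adjusted p = 0.00797, edgeR). Irf1 and Irf8 had 0.45 and 2.08 and did not pass, and Irf4 was the 1 factor higher at PPE week 2 than in saline (1.43 ± 0.35, adjusted p = 0.0404, edgeR).

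Of 11 tested genes of nucleic acid sensing 5 rose at PPE week 1: the RNA sensor Ddx58 (1.30, adjusted p = 0.0129), its activator Trim25 (1.07, adjusted p = 0.00763), the adaptor Myd88 (1.21, adjusted p = 0.0108), the DNA receptor Tlr9 (2.24, adjusted p = 0.0460) and the kinase Ikbke (0.87, adjusted p = 0.0496, edgeR). Myd88 and Trim25 were lower again at PPE week 2 than at PPE week 1. None of 6 tested negative regulators passed at PPE week 1 by edgeR, and 3 of them had an unadjusted p under 0.05. Of the 42 tested among 56 other interferon-induced genes, 25 rose and 0 fell at PPE week 1, all 42 had positive log2 fold changes and their median was 1.56. The smallest adjusted p belonged to Tor3a (1.24, adjusted p = 0.00535, edgeR), the membrane protein Ifitm3 that blocks viral entry (1.56, adjusted p = 0.00684) and the immunoproteasome subunit Psmb8 (1.93, adjusted p = 0.00814). They were followed by Cxcl10, which attracts T cells (3.50 ± 0.64, adjusted p = 0.00982, edgeR), Lgals3bp (1.79, adjusted p = 0.0103) and Cd274, the checkpoint ligand PD-L1 (1.81, adjusted p = 0.0134). At PPE week 2, 5 of the 42 were lower than at PPE week 1, and the median of the 42 log2 fold changes was -1.10. Against saline 0 of the 42 passed at PPE week 2 by edgeR, with 4 at an unadjusted p under 0.05.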

How the data were processed

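Per the labels' protocols, TRIzol-extracted RNA went into TruSeq v2 libraries; that kit does not record the strand, so reads of overlapping genes cannot be told apart. Per the file headers, the authors deposited raw counts for each RefSeq accession, and for each PPE week a table of log2 fold changes and p-values against saline. Their tools were bcl2fastq and DESeq2 with build mm10, per the submitters' processing notes; aligner and counter: not given in the sources used here. RefSeq's GRCm38.p6 table named 34424 of the 34755 accessions and GENCODE M21 named 192 more, which left 139 unnamed. Labels give 4 mice per group. Replicates differed by more than sampling noise (chi-square per feature 15.2 to 94.6), and each library counted as 1 sample.

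Counts were tested with edgeR 4.0.16 in R 4.3.3: filterByExpr, TMM scaling, 1 robust quasi-likelihood fit over the 12 libraries with a mean per group, two-sided tests and Benjamini-Hochberg adjustment over 12756 accessions. The biological coefficient of variation was 0.512. SE is the log2 fold change divided by the square root of F. The main alternatives used DESeq2 1.42.0 and limma 3.58.1, other scalings, filters and sample sets. The members and gene lists were chosen with earlier results of these data known. Per-library values are given for the 16 members with the smallest p in any comparison and for a fixed set of named members. Marker lists were summed in CPM and compared by exact permutation. Promoter sequences come from RefSeq.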

Additional observations from a re-analysis of the deposited data

Results flagged for a closer look

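Of the 36 tested genes 6 differed in level between PPE week 2 and PPE week 1 (edgeR, adjusted over all accessions). Saline was collected after 7 days only, so that a change in the effect of PPE and a change with time cannot be told apart. The log2 fold change of PPE week 2 over PPE week 1 was -2.15 for Isg15, -1.27 for Stat2, -1.22 for Slfn5, -1.30 for Herc6, -3.03 for Trim30b and -1.04 for Eif2ak2, with adjusted p of 0.0194, 0.0411, 0.0136, 0.0194, 0.0482 and 0.0325 (edgeR). For the other 30 genes the difference did not pass.

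In 4 of 93 groups of 4 libraries 1 library lay far from the other 3 (Dixon's test), and chance alone flags about 1 in 20. Zbp1 reached 44.3 CPM in saline replicate 1, and Slfn4 reached 0.129 CPM in saline replicate 4, where the other 3 saline libraries had 0. Macrophage markers summed to 5824 CPM in PPE week 1 replicate 2. Endothelium markers summed to 1182 CPM in PPE week 2 replicate 1.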

How the results depend on the processing

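The medians of the 36 genes kept their direction in every setting for PPE week 1 over saline (1.64 to 2.19) and for PPE week 2 over PPE week 1 (-1.82 to -1.05), whereas PPE week 2 over saline ran between -0.26, with the covariate, and 0.92, by library size only. The counts of calls depended on the setting, and the cause was not tested. Members called at PPE week 1, 22 in the reported fit, were 31 by DESeq2, 33 with only the 8 libraries compared, 10 without the low-count filter, 14 with the replicate block and 0 with the rRNA precursor share as a covariate, and 4 to 28 without 1 library. At PPE week 2 against saline, 1 as reported, they were 4 by library size only, 2 by DESeq2, 0 by limma-voom, 0 with only 8 libraries, the replicate block, the covariate or halved counts, and 0 to 2 without 1 library. Between PPE week 2 and PPE week 1, 6 as reported, they were 3 by library size only, 22 by DESeq2, 26 by limma-voom, 2 without the filter, 0 with the covariate and 0 to 12 without 1 library. Over all accessions, calls at PPE week 1 were 1587 by DESeq2, 2026 with only 8 libraries, 82 with the covariate and 378 to 1396 without 1 library, against 1007. At PPE week 2 against saline they were 745, 74 and 0 under these settings, 1638 by library size only (1611 higher), 204 with the replicate block and 139 to 381 without 1 library, against 338. Between PPE week 2 and PPE week 1 they were 1463, 521 and 69, and 319 to 1213 without 1 library, against 841. Scaling by library size only moved the median of all accessions to 0.281, 0.538 and 0.229 in the 3 comparisons, and its calls split into 1034 higher and 195 lower, 1611 and 27, and 682 and 75. Over the 36 genes, PPE week 2 over saline had 29 above 0 as reported, 13 with the covariate and 34 by library size only. Of the single log2 fold changes printed, those that changed sign at PPE week 1 were Iigp1 (-0.32) and Gbp3 (-0.76), both with the covariate. At PPE week 2 over saline, Slfn5 was 0.23 by library size only, Isg15 was -0.062 by limma-voom and -0.58 with the covariate, and Gbp2, at 0.00 as reported, was -0.015 by RLE scaling, -0.015 by DESeq2, -0.010 without the filter, -0.018 with only 8 libraries, -0.065 with the covariate, -0.18 with the replicate block and -0.28 by limma-voom. Without 1 library these ran from -0.32 to 0.48 for Isg15, -0.56 to 0.26 for Gbp2, -0.82 to 0.82 for Iigp1 and -1.09 to 0.41 for Trim30b. Ifi47 at PPE week 2 over PPE week 1 was 0.064 with unscaled library sizes, 0.15 with the replicate block, 0.030 with the covariate and -0.47 to 0.094 without 1 library. No strong pairing by replicate number was seen, with correlations of same-numbered deviations from -0.0881 to 0.0353. Among 12 pairs 0 were over 0.1, and 1 of 12 libraries was closest to its own number. With 4 libraries per group this cannot exclude a weaker link between same-numbered samples. Genes with several isoforms or few counts, Irf7, Irf9 and Gbp7 among them, are limited by the deposited counts and not by the tests.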
